A study of Mus musculus with 38 samples.

Results

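The response of A/J mouse spleen to 10 cGy of X-rays was measured on 8 of the 38 two-colour arrays of the series, those that the labels give to the strain A/J. A/J is an albino inbred laboratory strain. All A/J mice were males of 10 to 14 weeks by the labels (the methods give a younger range), the exposed ones received 10 rad in vivo, which equals 10 cGy, and the controls were handled the same way without the beam (sham). Spleens were taken 3.5 hr later. Each array carried RNA of 1 exposed and 1 sham mouse, joined at random, with the exposed RNA in Cy5 on 4 arrays (46, 85, 87 and 89) and in Cy3 on the other 4 (45, 86, 88 and 90). By the methods each pair of mice was hybridised again with the dyes exchanged, so the 8 arrays hold fewer than 8 independent pairs, and the labels do not name the partner arrays. The p-values below treat the arrays as separate samples and to that extent measure technical spread.

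X-rays break DNA strands, and cells answer through the kinases ATM and ATR and the transcription factor p53, which switches on genes of growth arrest (Cdkn1a), of cell death (Bax, Pmaip1) and of its own control (Mdm2). The spleen filters blood, houses B and T lymphocytes, natural killer cells and macrophages, and keeps up blood formation in the adult mouse, with erythroid cells and megakaryocytes. Lymphocytes are known as cells that die readily after irradiation. The tail of the pancreas lies against the spleen, and its acinar cells make digestive enzymes in very large amounts. Because each value compares whole organs, fewer cells of a type and less RNA per cell cannot be told apart here.

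The deposited values are signed and have no stated scale, log base or dye direction, so they are given as scores and not as fold changes. Each array was centred on the median of its probes, and the sign was turned on the 4 arrays with irradiated RNA in Cy3. After this step a value on the positive side means more RNA in the irradiated mouse if the deposited ratio is Cy5 over Cy3, and less if it is Cy3 over Cy5. The response of a probe is the mean of its 2 orientation means, so that a dye effect of equal size on both drops out. A/J arrays held values for 10986 to 19056 probes, fewer at the median (13537.5) than the arrays of the other strains (17237). Their medians before centring ran from -1.30 to 2.06, and the spots of Gapdh, a glycolytic enzyme printed many times on the array, had an SD of 0.358 to 1.33 within an array. Among A/J arrays of one orientation the correlation over probes ran from -0.221 to 0.756, and the means of the 2 orientations, before turning, correlated at 0.392, so that much of what the arrays shared followed the dye.

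A ratio gives no level, so the tissue label could be checked only by which genes gave a value on all 8 arrays, since dim spots had been removed. Such values came from 44 of 58 ribosomal protein genes, 20 of 30 red cell and heme genes, 10 of 27 B cell genes, 11 of 35 macrophage and dendritic cell genes and 6 of 29 T cell genes on the array. The same held for 11 of 32 pancreas genes, 5 of 22 muscle genes and 6 of 24 testis and germ cell genes. Over all genes with a symbol it held for 2081 of 6512. Of these lists only the ribosomal protein and the red cell and heme genes stood well above that share. The B cell, T cell and macrophage counts therefore do not identify the tissue. Cd22 and Cd79b, both parts of the B cell receptor system, had values on 8 and 7 of the A/J arrays.

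No probe passed the test for a response in A/J. In the limma fit with a dye term, 0 of 14294 probes with values on at least 2 arrays of each orientation had a Benjamini-Hochberg adjusted p under 0.05 (0%), and the smallest adjusted p was 0.9998. At an unadjusted p under 0.05 there were 293 probes (2.05%), 170 on the positive side (1.19%) and 123 on the negative side (0.861%). The response had a median standard error of 0.229 and a median size of 0.152. By contrast, 473 of the same probes (3.31%) had an adjusted p under 0.05 for the dye term, and for 70.3% of probes the dye term was larger than the response. A symbol could be given to 4300 of the tested probes, and the account of genes below rests on these.

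Agreement among the arrays was correspondingly rare. Of 7365 probes with a value on all 8 arrays, 9 had one sign throughout (0.122%), 3 on the positive and 6 on the negative side. The 3 named ones were all negative. Rpl39l (NM_026594), a ribosomal protein paralogue, was -0.476, -0.0322, -0.787 and -0.231 with irradiated RNA in Cy5 and -0.0984, -0.618, -0.0388 and -0.188 with it in Cy3, a response of -0.309 ± 0.153 (SE). C1qbp (NM_007573), a mitochondrial matrix protein, lay between -0.752 and -0.0153, with a response of -0.295 ± 0.140. Rgl2 (NM_009059), an exchange factor of the Ral GTPases, lay between -0.703 and -0.0153, with a response of -0.257 ± 0.150. In all 3 genes at least 1 array was close to 0, and the unadjusted p from limma was 0.0720, 0.0621 and 0.118. The 6 others had no symbol here and are named because they are few, after their values were seen. Z78162 had the smallest unadjusted limma p of the 9 (0.00989) and no array close to 0, with values from -0.967 to -0.236 and a response of -0.479 ± 0.150. BC002088 and BC013637 had responses of -0.342 and -0.412, and on the positive side AK012325, AK020595 and X95349 had 0.629, 0.503 and 0.436.

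Genes that led the response by p were mostly measured on some of the arrays, and most of them separated by dye. Crisp3 (NM_009639), a secreted cysteine-rich protein known from salivary gland and neutrophils, had the smallest p of the named genes. It was 1.48, 1.55 and 1.37 on the Cy5 arrays 46, 85 and 89 and 0.0923, 0.147, -0.315 and -0.262 on the Cy3 arrays 45, 86, 88 and 90. The positive response of 0.692 ± 0.158 thus came from 1 orientation, and the 4 arrays of the other were split around 0. Its unadjusted limma p was 0.00182. Irgm1 (NM_008326), an interferon-induced GTPase of defence inside cells, was the leading gene that was alike in both dyes. It was 0.690 and 1.45 in Cy5 and 0.694, 1.48 and 0.414 in Cy3, positive on all 5 arrays that measured it, with a response of 0.966 ± 0.260 and an unadjusted p of 0.00770. Sycp3 (NM_011517), a protein of the meiotic chromosome axis, was positive on all 5 of its arrays as well, at 1.33 and 2.96 in Cy5 and at 0.487, 0.474 and 0.332 in Cy3. Its response was 1.29 ± 0.285. The fetal serum protein gene Afp had a higher response (1.5 ± 0.439) with a wider range, from -0.483 on array 45 to 3.71 on array 87. Prkg2 (a cGMP-dependent kinase), Lhx5 (a homeobox factor), Pacc1 (a chloride channel) and Ttc14 had responses of 0.987, 1.11, 0.693 and 0.764.

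On the negative side the spread was wider. Osmr, the receptor chain for oncostatin M, was 0.980 and 0.354 on its Cy5 arrays and -2.87, -4.75 and -2.61 on its Cy3 arrays. Srp9, a subunit of the signal recognition particle, was divided in the same way, at 1.34 and 0.315 in Cy5 and -2.81 and -3.47 in Cy3. Their responses of -1.37 ± 0.359 and -1.16 ± 0.297 are therefore means of opposite signs. Naca (NM_013608), which binds new chains as they leave the ribosome, was more even. It was -0.659, -1.05, -0.755 and -0.659 in Cy5 and 0.209, -0.575, 0.0553 and -0.632 in Cy3, negative on 6 of 8 arrays, with a response of -0.509 ± 0.159 and an unadjusted p of 0.00953. Tpp2, a large cytosolic peptidase, was negative on all 5 arrays that measured it, from -1.82 to -0.0583. Trim21, a ubiquitin ligase that binds antibody, was negative on 5 of 6 arrays, with a response of -0.703 ± 0.220. Ech1, an enzyme of fatty acid oxidation, had a response of -1.37 ± 0.471, which changed to -0.666 without arrays 45 and 46, where it stood at -3.43 and -3.52. Sertad2 and Serf1 completed this side at -1.03 and -0.877.

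**Figure D1:**
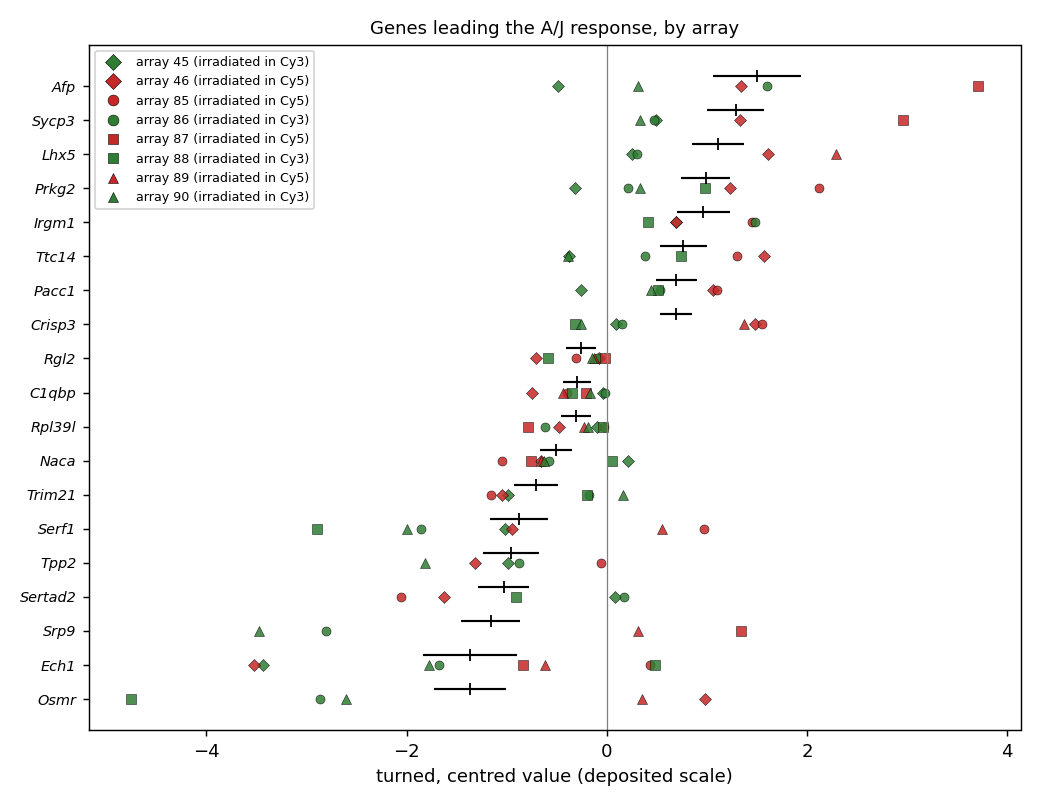
Turned, centred values of the named genes leading the A/J response, on the deposited scale (horizontal axis), by gene (vertical axis). Each point is 1 array, red with irradiated RNA in Cy5 and green with it in Cy3, and the black bar is the response ± SE. Irgm1 and Tpp2 keep one sign on the arrays that measured them, and Osmr and Srp9 divide by dye.

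No gene of the DNA damage lists passed the test. Of 21 p53 target genes on the array 15 were tested, 9 positive and 6 negative, with a median response of 0.0251 beside -0.0419 over all probes tested, and none had an unadjusted p under 0.05. The median turned to -0.0210 without array 86. Cdkn1a, the inhibitor of cyclin-dependent kinases that p53 induces, had a response of -0.0266 ± 0.174. Mdm2, the ligase that degrades p53, had 0.0599 ± 0.229, and Trp53 itself had 0.0768 ± 0.158. Bax, which permeabilises mitochondria, had the largest response of the list, 0.307 ± 0.219. It was 0.678, 0.906, -0.601 and 0.863 in Cy5 and -0.231, 0.970, -0.0485 and -0.0826 in Cy3, so positive on 4 arrays and negative on 4. Apaf1, the core of the apoptosome, was positive on 5 of 6 arrays, with a response of 0.294 ± 0.188. Pmaip1 had -0.0924 ± 0.171 and Gadd45a -0.153 ± 0.309.

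The DNA repair list had 9 positive and 17 negative genes of 26 tested and a median of -0.0829, again with none at an unadjusted p under 0.05. Rad50, of the complex that holds broken ends, was negative on 6 of 7 arrays, with a response of -0.369 ± 0.192. Apex1, the endonuclease of base excision repair, had -0.640 ± 0.326 on 4 arrays. Of the checkpoint kinases, Chek1 had 0.111 ± 0.176 and Chek2 had 0.198 ± 0.217. The apoptosis list had 10 positive and 17 negative genes and a median of -0.0828, which turned to 0.0217 without array 88. Mcl1, a short-lived inhibitor of apoptosis, was 0.0432 to 0.169 on 3 Cy5 arrays, -1.0 on the other Cy5 array, 0.0971 on array 45 and -1.14 to -0.861 on the other Cy3 arrays, with a response of -0.439 ± 0.202. Dffa, the inhibitor of the apoptotic DNase, had -0.458 ± 0.208.

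The interferon response list had 3 genes at an unadjusted p under 0.05 among 25 tested, beside 2.05% of all probes, and its median was 0.0604. Isg15, a ubiquitin-like protein among the strongest interferon-induced genes, was 0.448, 0.882 and -0.798 in Cy5 and 1.54, 2.08 and 0.818 in Cy3. It was positive on 5 of 6 arrays, with a response of 0.83 ± 0.278 and an unadjusted limma p of 0.0179. Jak2, a kinase that carries the signal of the interferon gamma receptor, was the third, negative on all 7 arrays that measured it (-0.761 to -0.00863), with a response of -0.420 ± 0.176. Other induced genes had smaller values for their error, such as Irf7 at 0.602 ± 0.505, Ifit3 at 0.375 ± 0.285, Usp18 at 0.309 ± 0.354, Igtp at -0.585 ± 0.414 and Gbp4 at -0.106 ± 0.259. The list's median per array ran from -0.482 on array 90 to 0.882 on array 85, and it turned sign without arrays 45 and 46 (-0.0538), without array 45 alone (-0.0252) and without array 85 (-0.0944). It was also negative (-0.108) with arrays centred on Gapdh, after taking off the shift of all probes.

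The promoters of the first 2 genes are shown because their values lay on the same side, as the 250 bases before the start of the gene in RefSeq on GRCm38.p6, read 5′ to 3′ on the minus strand, with capitals marking GAAA, any 2 bases and GAAA again, the core of the interferon-stimulated response element, searched on both strands with overlapping matches kept.
Isg15, chr4:156200819-156201068: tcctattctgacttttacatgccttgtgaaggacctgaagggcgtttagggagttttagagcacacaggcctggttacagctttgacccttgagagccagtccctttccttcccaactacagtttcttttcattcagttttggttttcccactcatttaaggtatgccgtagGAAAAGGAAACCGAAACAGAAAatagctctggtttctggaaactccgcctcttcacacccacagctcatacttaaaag
Irgm1, chr11:48871421-48871670: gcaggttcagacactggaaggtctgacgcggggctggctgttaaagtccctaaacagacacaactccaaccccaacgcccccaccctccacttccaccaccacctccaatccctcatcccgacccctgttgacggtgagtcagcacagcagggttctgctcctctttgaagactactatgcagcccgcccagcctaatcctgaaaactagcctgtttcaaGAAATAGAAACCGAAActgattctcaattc
Isg15 held 3 overlapping matches and Irgm1 held 2. Counting a gene once if any of its promoters held it, the motif was in 936 of 27025 genes (3.46%). It was in 7 of the 21 tested interferon response genes that had a promoter sequence. A match describes the letters and is no evidence of binding.

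The genes of protein synthesis and respiration leaned to the negative side without passing the test. Of 54 ribosomal protein genes tested 48 were negative, with a median response of -0.241, and over all probes tested 8275 were negative and 6019 positive. One, Rps18, had an unadjusted p under 0.05, and none had an adjusted p under 0.05. The list's median was positive on array 45 (0.198) and on array 86 (0.0939), between -0.219 and -0.106 on the 4 Cy5 arrays, and lowest on arrays 88 (-0.530) and 90 (-0.627). Single members were divided by dye in opposite ways. Rpl41 was -0.372, 0.102, 1.31 and 0.00889 in Cy5 and 0.235, -1.74, -1.90 and -2.66 on the Cy3 arrays 45, 86, 88 and 90. Rps12 was at -0.313, -1.14, -1.08 and -1.54 in Cy5 and 0.392, 0.126 and 0.0490 in Cy3. The median was -0.253 without centring and -0.199 with arrays centred on Gapdh (after taking off the shift that this gives all probes, whose median goes from -0.0419 to -0.256), -0.341 to -0.167 with each array left out in turn, and -0.330 without arrays 45 and 46. In the mitochondrial respiratory chain list 27 of 36 genes were negative, with a median of -0.191. Cox7a2, a small subunit of cytochrome oxidase, had the largest size, -1.34 ± 0.576, from -3.98 on array 90 to 1.44 on array 85, and Uqcrc1, a core subunit of complex III, was negative on 6 of 7 arrays with a response of -0.318 ± 0.161.

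Genes that mark the cell types of spleen showed no shift past the test. Among B cell genes 7 were positive and 13 negative (median -0.0521), among T cell genes 11 and 9 (0.0174), among natural killer cell genes 2 and 9 (-0.183), and among macrophage and dendritic cell genes 13 and 15 (-0.0223). The T cell median turned to -0.0747 without array 45 and to -0.162 without arrays 45 and 46, and the B cell median to 0.0281 with Gapdh centring. Cd22 had a response of -0.263 ± 0.173 and Cd79b, a signalling chain of the B cell receptor, -0.243 ± 0.183. Among the 7 positive B cell genes, Cd79a had 0.0599 ± 0.179 and Cd72 had 0.188 ± 0.325. Cd2, an adhesion receptor of T cells, had -0.340 ± 0.187, though more T cell genes were positive than negative. Prf1, the pore-forming protein of killer cells, had -0.531 ± 0.256. The macrophage gene Aif1 was the 1 gene of these lists at an unadjusted p under 0.05, with 1.10 and 1.17 in Cy5 and -0.0818, 0.551 and 0.966 in Cy3 and a response of 0.806 ± 0.239. Lyz2, the lysozyme of the same cells, was negative on 6 of 8 arrays, with -0.315 ± 0.154. Red cell and heme genes were negative in 23 of 28 (median -0.0955), with Epb42, a protein of the red cell skeleton, at -0.250 ± 0.151. Platelet and megakaryocyte genes were positive in 7 of 11 (0.0405), neutrophil and granule genes in 9 of 14 (0.0282), and genes of stroma and vessels in 10 of 18 (0.0408). None of these 3 medians kept its sign under every alternative, and that of the neutrophil list went to -0.0263 without array 86 and to -0.111 without arrays 45 and 46. Both plasma cell genes tested, Xbp1 and Prdm1, had negative responses of -0.207 ± 0.313 and -0.223 ± 0.387.

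The other lists had medians near that of all probes, and of the 27 lists 18 changed the sign of their median under at least 1 alternative. The medians were -0.0186 for cytokines and chemokines (15 of 33 genes positive), -0.0711 for oxidative stress (13 of 31), -0.0475 for immediate early genes (8 of 20), -0.0637 for heat shock and chaperones (10 of 30) and 0.0234 for TGF-beta and matrix (14 of 26). They were -0.0363 for cell cycle and replication (15 of 37), 0.00448 for glucocorticoid and clock genes (7 of 14), -0.0640 for complement and coagulation (4 of 17), 0.0235 for fat (5 of 10), -0.0502 for muscle (7 of 14) and -0.0827 for testis and germ cells (4 of 12). Single genes of these lists at an unadjusted p under 0.05 were few, and Sycp3 above is the one among the germ cell genes. Egr3, an immediate early transcription factor, was negative on all 5 arrays that measured it (-1.27 to -0.149), with a response of -0.699 ± 0.247. Cebpd and Arntl, a glucocorticoid-responsive factor and a core clock factor, had 0.758 ± 0.334 and 0.461 ± 0.202, each positive on 5 of 7 arrays. Cdk4, the G1 kinase, had 0.988 ± 0.329 on 4 arrays and Gstt2, a glutathione transferase, 0.615 ± 0.240.

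**Figure D2:**
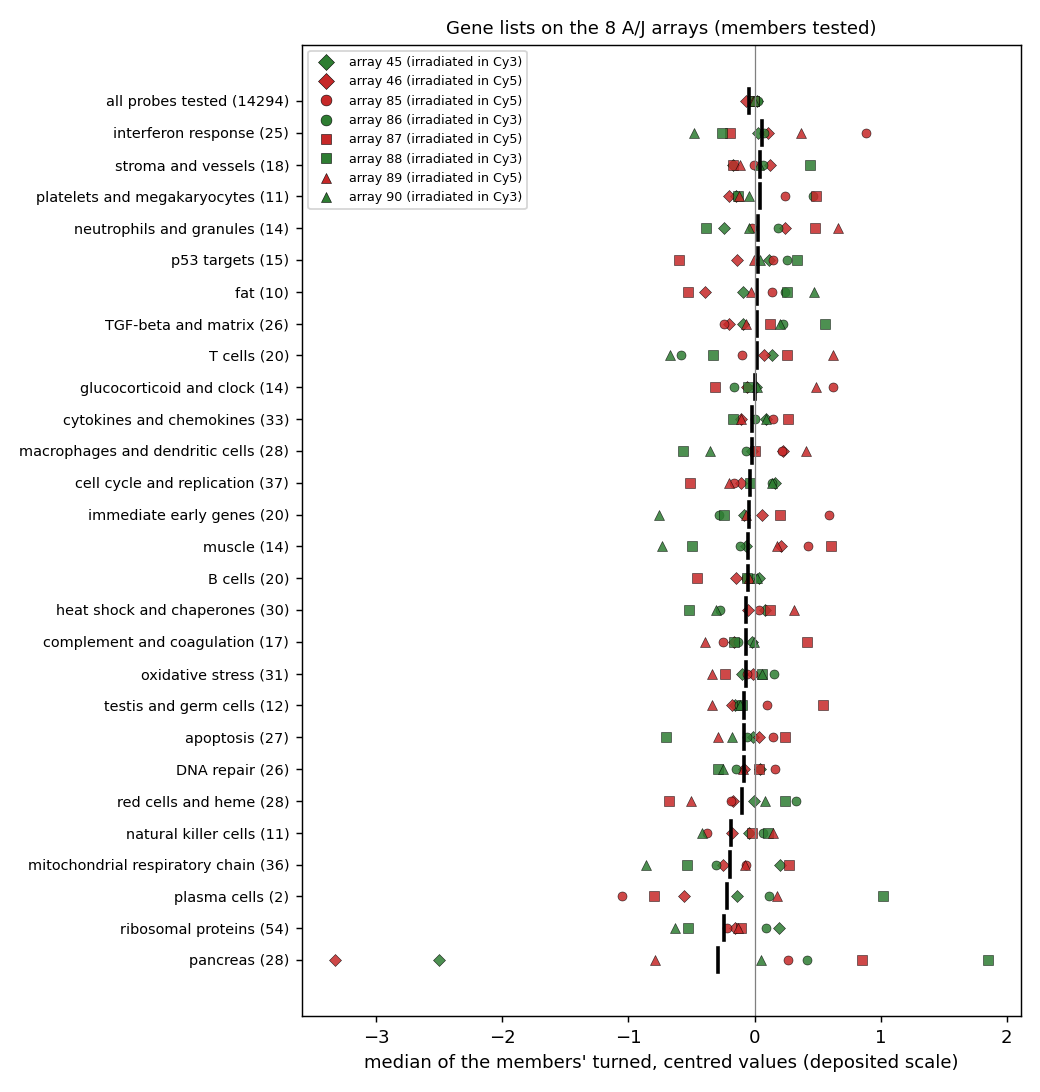
Median of the turned, centred values of each gene list (vertical axis, number of genes tested in brackets) on each of the 8 A/J arrays, on the deposited scale (horizontal axis). Points are arrays, red with irradiated RNA in Cy5 and green with it in Cy3, and black bars are the median of the members' responses. Pancreas stands apart on arrays 45 (-2.50) and 46 (-3.33) on the negative side and on array 88 (1.85) on the positive side.

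The pancreas list varied more between A/J arrays than any of the other lists, with an SD of the 8 array medians of 1.74. Next came the plasma cell list at 0.702, with only 2 tested genes and no value on array 90, and the muscle list at 0.451. Of the 28 tested pancreas genes, the 25 with a value on array 45 had a median of -2.50 there. The 17 with a value on array 46 had a median of -3.33. These arrays had the most extreme pancreatic values, which is why the response was also computed without them. The median was 0.263 and 0.417 on arrays 85 and 86, 0.855 and 1.85 on arrays 87 and 88, and -0.789 and 0.0478 on arrays 89 and 90. On array 45, 24 of 25 measured genes were on the negative side, and on array 87, 3 of 25. Cel, the bile salt-activated lipase of pancreatic juice, was -5.0, 2.41 and -0.650 on the Cy5 arrays 46, 87 and 89 and -4.49, 0.0761, 1.85 and -0.655 on the Cy3 arrays 45, 86, 88 and 90. Ctrl, a chymotrypsin-like protease, was -4.66, -0.759, 1.67 and -0.0725 in Cy5 and -2.80, -0.354, 1.67 and -1.37 in Cy3. Rnase1, the pancreatic ribonuclease, was -4.24 and -3.86 on arrays 46 and 45 and between -1.28 and 1.81 on the other arrays. Prss2, a trypsinogen, went from -3.47 on array 46 to 4.53 on array 88. In these genes arrays 45 and 46 stood below all other A/J arrays, with the exception that Prss2 was -3.26 on array 89, below array 45 (-2.50).

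Some members stood apart from this. The islet hormone genes Ins1, Ins2 and Sst had values of 0.126, -0.0589 and -0.242 on array 45 and -0.0268, 0.0629 and 1.21 on array 46, and the acinar transcription factor gene Bhlha15 had -0.485 and -0.142. All 23 other genes with a value on array 45 or 46 were below 0 wherever measured there, from -5.06 to -1.25. No pancreas gene had an unadjusted p under 0.05, with 23 of 28 negative and a median response of -0.293. Without arrays 45 and 46 the median was 0.299, 23 of 27 genes were positive, and 22 of the 27 had turned sign. These arrays were left out for their low values in this same list, so the rise follows from that choice and is no test. With array 45 alone left out the median was 0.117.

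The promoters of Cel and Ctrl are shown because these enzyme genes varied together across the arrays, as the 250 bases before the start in RefSeq on GRCm38.p6, read 5′ to 3′ on the minus strand, with capitals marking the pieces of the site bound by the acinar factor PTF1, TTTCCC and the E-box CACCTG, and TATAAA, each searched on both strands.
Cel, chr2:28563404-28563653: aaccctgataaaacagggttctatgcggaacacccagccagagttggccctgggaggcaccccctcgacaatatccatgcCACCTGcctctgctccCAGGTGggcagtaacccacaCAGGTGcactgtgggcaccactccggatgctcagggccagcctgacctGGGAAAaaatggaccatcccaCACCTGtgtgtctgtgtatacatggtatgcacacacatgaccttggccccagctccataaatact
Ctrl, chr8:105933863-105934112: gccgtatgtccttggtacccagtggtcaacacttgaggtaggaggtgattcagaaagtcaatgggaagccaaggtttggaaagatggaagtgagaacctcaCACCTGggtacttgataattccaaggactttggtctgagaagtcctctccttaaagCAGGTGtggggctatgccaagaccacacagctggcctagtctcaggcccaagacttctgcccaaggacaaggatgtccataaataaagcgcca
Cel held 4 CACCTG matches and 1 TTTCCC match, Ctrl held 2 CACCTG matches, and TATAAA was in neither. Counted per gene, CACCTG was in 12 of 23 tested pancreas genes with a promoter sequence and in 19.4% of all genes. TATAAA was in 11 of the 23 and in 14.3%, and TTTCCC in 7 of the 23 and in 24.4%. CACCTG and TTTCCC were both in 4 of the 23 and in 4.2% of all genes, and in 4 of 21 interferon response genes.

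**Figure D3:**
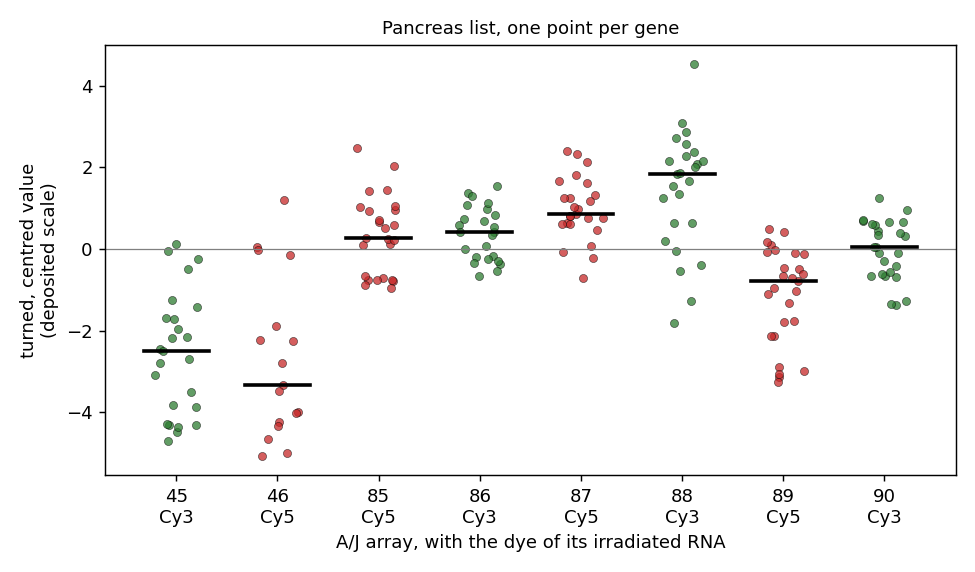
Turned, centred values of the pancreas list on the deposited scale (vertical axis) on each A/J array (horizontal axis, with the dye of the irradiated RNA). Each point is 1 gene and each bar the median, which lies at -2.50 and -3.33 on arrays 45 and 46 and at 1.85 on array 88.

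Probes outside the pancreas list shared this pattern, and whether the pancreas expresses their genes too was not checked. Of 17718 probes with values on arrays 45 and 46, 187 were below -2 on both and 26 above 2 on both. Of the 187, 58 had a symbol and 7 of these were in the pancreas list. Their medians on arrays 87 and 88, which did not enter the choice, were 1.31 and 1.51, and between -0.411 and 0.234 on the other 4. Cpa3, a carboxypeptidase of mast cells, was -4.56 and -6.30 on arrays 45 and 46 and 2.00 and 1.71 on arrays 87 and 88. Masp2, a protease of complement, was -4.58 and -3.95 on the first pair and 1.25 and 1.81 on the second. Lect2, Tnfrsf25, Ctsw and Ugdh followed the same course, and these genes are named after their values were seen. Arrays 45 and 46 correlated at 0.381 after turning and at 0.217 without the probes beyond 2 in size, over all probes measured on both. The other pairs of consecutive arrays ran opposite after turning, at -0.305 for 85 and 86, -0.413 for 87 and 88 and -0.389 for 89 and 90. Whether the pancreatic values play a part in the values of other genes was not tested.

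Without arrays 45 and 46 there was again no call. The limma fit on 6 arrays had 0 of 11317 probes with an adjusted p under 0.05 (0%), with 0.799 as the smallest adjusted p, and 614 at an unadjusted p under 0.05 (5.43%), 222 positive and 392 negative. Over the 11317 probes the 2 responses, which share 6 arrays, had the same sign in 78.1%. Of the 293 probes at an unadjusted p under 0.05 on 8 arrays, 165 were still tested, and 102 of them were under it again. Il1r1, the signalling receptor of interleukin 1, was between 0.393 and 1.15 on these 6 arrays, with a response of 0.685 ± 0.159, and it was -0.241 and -0.490 on arrays 45 and 46. Il1rl1, the receptor of interleukin 33, had 0.843 ± 0.202 and Ccl22, a chemokine that attracts regulatory T cells, had 0.672. Id2, an inhibitor of helix-loop-helix factors, had -0.661 ± 0.154 and stood at -1.75 to -1.47 in Cy5 but -0.0181 to 0.574 in Cy3. The kinase gene Cdkl2 had -1.37 ± 0.284, at 0.449, 0.0745 and -1.3 in Cy5 and -1.66, -2.78 and -3.02 in Cy3. Il1r1, Il1rl1, Id2 and Cdkl2 had the smallest p on their sides here and are named after their values were seen. Of the ribosomal protein genes 10 were at an unadjusted p under 0.05 in this fit, against 1 with 8 arrays, among them Rpl41 (-0.814) and Rps12 (-0.583).

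**Figure D4:**
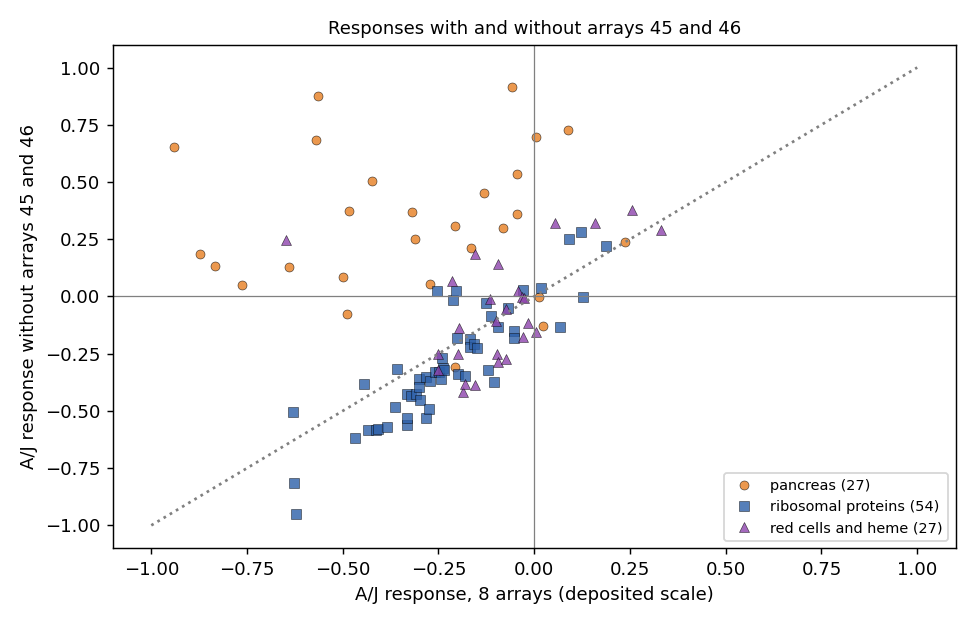
Response of the genes of 3 lists on 8 A/J arrays (horizontal axis) against the response without arrays 45 and 46 (vertical axis), both on the deposited scale. Each point is 1 gene and the dotted line marks equal values. Most pancreas genes move from the negative to the positive side, and most ribosomal protein genes stay on the negative side. The arrays left out were chosen by their pancreatic values, so the move of the pancreas genes follows from that choice.

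A/J was set against the mean of the 5 other strains (B6.C, BI6Jx, BalbxJ, C3H and DBA/2J, as the labels spell them, with 30 arrays in all) in a limma fit over the 38 arrays. Of 12950 probes 1 had an adjusted p under 0.05 (0.00772%), and 798 had an unadjusted p under 0.05 (6.16%), 314 with A/J higher and 484 with A/J lower. The 1 probe, AF055896, had no symbol here. It was between -1.52 and -0.171 on its 6 A/J arrays, a response of -0.674, against a mean of 2.74 in the other strains, a difference of -3.41 ± 0.565 with an adjusted p of 0.0370 from limma. That mean rested on BI6Jx, with a response of 11.0 from 2 arrays at 1.43 and 20.7, and the other 4 strains lay between -0.419 and 1.67. Without the array at 20.7 (array 11) BI6Jx could not be fitted for this probe, and the count of calls was 0.

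Among named genes none passed the test of the difference, where the smallest adjusted p was 0.700, for Nbr1. Crisp3 had 0.692 in A/J and -0.221 in the mean of the others, and its 27 values in the other strains had a median of -0.202. The muscle and liver carbonic anhydrase gene Car3 had 0.518 in A/J, positive on 5 of 8 arrays, against -0.473, with 6 of 26 values positive in the other strains. Zbtb32, a repressor of lymphocyte activation, was positive on all 6 A/J arrays that measured it (0.0402 to 2.12), against a mean of -0.234. In the other direction S100a10, a partner of annexin, had -0.366 against 0.430, but B6.C (-0.0774) and C3H (-0.307) were negative too. Mad1l1, of the spindle checkpoint, was negative on 7 of 8 A/J arrays, with -0.473 ± 0.179, and each of the 5 other strains was positive, from 0.0687 in B6.C to 1.24 in DBA/2J. The chemokine gene Ccl2, which draws monocytes, had -0.563 in A/J, where arrays 45 and 46 were at -1.73 and -1.84, and 0.636 in the others. Its A/J response was -0.156 without these arrays. Nbr1, a receptor of selective autophagy, had a difference of -2.67, with A/J values from -5.42 to 0.353 and BI6Jx values from 2.89 to 7.28. Fthl17e, a ferritin heavy chain-like gene, Styx, a phosphatase without catalytic activity, and C2, a complement component, had 0.800, 0.406 and -0.158 in A/J against -0.265, -0.578 and 0.632 in the others, with both signs among the A/J arrays of each.

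**Figure D5:**
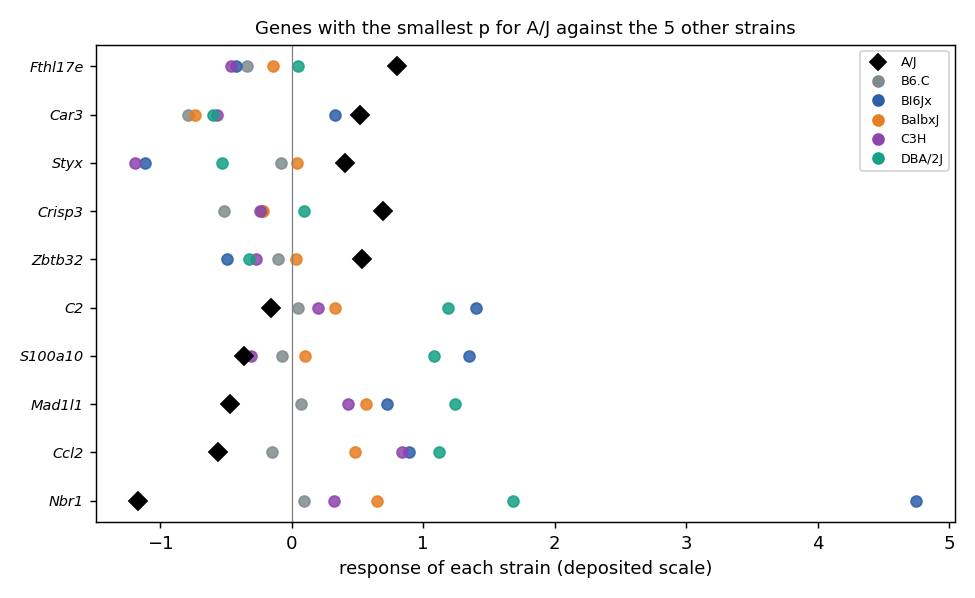
Response of each strain on the deposited scale (horizontal axis) for the 10 genes that lead the test of A/J against the other strains by p (vertical axis). The black diamond is A/J and coloured circles are the other strains. For Nbr1, S100a10 and C2 the circles farthest from A/J are BI6Jx and DBA/2J.

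Across the 12950 probes the A/J response and the mean of the other strains, which share no arrays but share probes and print, correlated at -0.242, and at -0.443 without arrays 45 and 46, as a description. By strain the correlation with A/J ran from -0.218 for BI6Jx to -0.00482 for C3H. The pancreas list median on the probes shared by all strains was -0.259 in A/J, -0.578 in B6.C, -0.788 in BalbxJ, -0.294 in DBA/2J, -0.0119 in BI6Jx and 0.0800 in C3H. For ribosomal protein genes it was -0.240 in A/J, -0.294 in BI6Jx and between -0.0755 and 0.171 in the other 4. No gene of either list had an adjusted p under 0.05 for the difference, and the strains differ in their number of arrays.

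Of 9 genes that the study singles out over all strains, 3 could be tested in A/J. Tgfbi, a matrix protein induced by TGF-beta, had a response of -0.268 ± 0.252, with values from -1.56 to 1.53. Notch3, a receptor of vascular muscle, had 0.119 ± 0.388 and turned to -0.23 without array 87, where it stood at 2.78. Smcp, a mitochondrial capsule protein of sperm, had 0.0901 ± 0.244 on 5 arrays. These values were smaller than their standard errors or close to them. The other 6 genes are not reported here, for want of values on enough A/J arrays or of a named probe.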

How the data were processed

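Per the methods, RNA was hybridised to printed oligonucleotide arrays, poor and dim spots were dropped, and the rest were corrected for local background and by Lowess. The values that the authors deposited are signed, 1 for each spot of an array, and are used as a score, because the sources used here do not give their scale, log base, centring or which dye is on top. Each array had 23232 spots, and the blank, buffer and Alien ones were dropped. The 232 Gapdh spots were averaged, which left 21766 probes, and 6518 of these were named through accessions in RefSeq GRCm38.p6, used for names and for the promoter sequences printed.

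The design foresaw log ratios, and the scores were used in their place. Arrays were centred on the probe median and tested with limma 3.58.1 in R 4.3.3 (a dye term and a response term, lmFit and eBayes, Benjamini-Hochberg adjusted p under 0.05). Probes needed values on 2 arrays of each orientation. The comparison with other strains also needed values on 19 of 38 arrays and on 1 array of each orientation in each other strain. Statmod 1.5.0, Python 3.11.15 and pandas 2.3.3 were used beside it, and the fits were tested on simulated data.

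The genes named by rule are those with one sign on all 8 arrays (up to 10 a side), the 8 further genes a side with the smallest p, the 3 with the smallest p in each of 27 lists, the 5 a side with the smallest p against the other strains, and genes the study singles out. Other list members were named outside these rules, with their values at hand. They are Cdkn1a, Mdm2, Trp53, Pmaip1, Gadd45a, Chek1, Chek2, Irf7, Ifit3, Usp18, Igtp, Gbp4, Cel, Prss2, Ins1, Ins2, Sst and Bhlha15. The arrays described, the lists and these rules were chosen with earlier results of these data known. Genes with several probes use the probe with most A/J values. The number of arrays limits the precision. Alternatives were other centrings, scaling, blocks, weights, filters and leaving arrays out.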

Additional observations from a re-analysis of the deposited data

Results flagged for a closer look

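In 167 groups of 4 arrays of one orientation, taken over the named genes and the list medians, 11 held an array far from the other 3 by Dixon's criterion, where chance flags about 1 in 20. On array 45 these were Pacc1 (-0.254, the lowest of its group), Pdcd4 (0.0299, where the other Cy3 arrays were at -1.36 to -1.33) and Fbln5, a protein of elastic fibres (-0.332). On array 46 it was Mcl1 (-1.0). On array 86 they were Bax (0.970), Clec1b, a receptor of platelets (0.460), and Arntl (0.419). On array 87 they were Bax (-0.601) and Sgk1, a glucocorticoid-induced kinase (1.02, with the other 3 at 0.752 to 0.795). On array 88 they were Rgl2 (-0.586) and the median of the cell cycle and replication list (-0.0338).

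The probe AF055896 differed between A/J and the other strains by -3.41 in limma's test of the difference (adjusted p = 0.0370), where 1 BI6Jx array, array 11, stood at 20.7.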

How the results depend on the processing

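The count of calls in A/J was 0 under each alternative except without centring, where it was 1 (AF357419, a probe without a symbol measured on 4 arrays, with 14.0 on 1 of them, named after its value was seen). Counts at an unadjusted p under 0.05 ran from 49 without centring to 854 with array quality weights, against 293. Leaving out 1 array gave 0 calls each time and 130 (array 86) to 609 (array 45) at the unadjusted p. The numbers of arrays could pair them only by a hint from the data. After taking off the orientation means and turning the signs, consecutive arrays deviated together (r of 0.262, 0.295, 0.318 and 0.0963). Other pairs of a Cy5 and a Cy3 array ran from -0.367 to 0.281. In these deviations each Cy5 array correlated best with its consecutive Cy3 array. The fit with consecutive arrays as a replicate block used values not turned and a consensus correlation of -0.104. On such values, arrays that deviate together after turning have a negative correlation. This block gave 0 calls and 233 probes at the unadjusted p, and the means of consecutive arrays gave 0 and 166.

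The 9 probes with one sign on every array became 0 without centring, 1 with Gapdh centring, 131 without arrays 45 and 46, and 16 to 55 with 1 array left out, where fewer arrays have to share a sign.

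The 1 call against the other strains became 0 without centring, without arrays 50, 53 and 97, without arrays 45 and 46, with values on all 38 arrays and, an alternative chosen after seeing the data, without array 11. It became 2 after scaling, and 0 to 2 with 1 A/J array left out (0 without 46, 85, 86, 88 or 90, and 2, with Nbr1 added, without 45). AF055896 had Cy5 values in A/J only on arrays 46 and 85, and BI6Jx values only on arrays 11 and 97. Without any 1 of these arrays, or with values needed on all 38, the probe was not tested. A count of 0 there says nothing about its difference.

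Single genes that turned sign, none of them called, were Rnase1 (0.186), Ctrl (0.132), Masp2 (0.167) and Eng (0.00808) without arrays 45 and 46, Elane (-0.185) and Scd1 (-0.287) with Gapdh centring, and Scd1 without centring (-0.0584). Smcp turned to -0.0471 with array weights and -0.0217 without array 89 (up to 0.184 without array 85). Notch3 turned to -0.230 with means of consecutive arrays, and to -0.230 without array 87 and -0.000672 without array 45 (up to 0.337 without array 46). The other 1810 alternative values of named genes kept their direction. Without centring and with Gapdh centring, genes and list medians were compared only after taking off the shift of all probes. As fitted, Gapdh centring left 15.9% of probes positive, against 42.1% in the main fit. Of the 27 list medians 18 turned sign under at least 1 alternative and 9 did not (DNA repair, cytokines and chemokines, macrophages and dendritic cells, respiratory chain, natural killer cells, oxidative stress, plasma cells, red cells and heme, ribosomal proteins). The causes were not tested, and signal over background was not used here.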
